A study of Mus musculus with 8 samples.

Results

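The 10 genes described are matrix metalloproteinases (MMPs), Mmp2, Mmp3, Mmp9, Mmp10, Mmp11, Mmp13, Mmp14, Mmp16, Mmp19 and Mmp23, taken by symbol from a table of 47706 mouse genes. Each symbol had a single entry, and 9 of the 10 genes had enough counts to be tested. The table lists 13 further MMP genes, so the 10 belong to a family of 23. RNA was sequenced from 4 cultures of primary calvarial osteoblasts treated with PTH (the 1–34 fragment of parathyroid hormone) for 24 hours and from 4 cultures treated with vehicle (PBS in the study's culture methods) for the same time. Calvarial osteoblasts are bone-forming cells released by collagenase from the skullcap of newborn mice. Cultures of both groups had been differentiated for 7 days and then kept in low serum before treatment. The labels call that differentiation adipogenic, whereas the study's methods describe an osteogenic medium. Neither source gives a genotype for these cultures beyond the prefix "Con" in the sample names, and neither says whether the 4 cultures of a group came from separate preparations of cells. The p-values therefore measure the spread between these samples, which may be technical.

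MMPs are zinc-dependent endopeptidases that cut collagens, proteoglycans and other proteins outside the cell. Most are secreted or anchored at the membrane as inactive proenzymes, become active when the propeptide is removed, and are blocked by tissue inhibitors of metalloproteinases (TIMPs). In bone, collagenase-3 (MMP13) and the membrane enzyme MMP14 (MT1-MMP) cut fibrillar collagen, and MMP13 is a classical PTH-responsive product of osteoblasts, whose gene promoter is known for an AP-1 site and a RUNX site near the transcription start. The comparison asks which of these transcripts differed after 24 hours of PTH.

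The promoter of Mmp13 is shown because both sites lie in it. The window is RefSeq's, from 250 bases before to 50 bases after the start site on the forward strand of GRCm38.p6 (chr9:7272264-7272563). The capitals mark, from left to right, a RUNX motif at -119 (TGTGGTT, here as its reverse complement AACCACA), an AP-1 motif at -35 (TGACTCA, or TGAGTCA on the other strand) and a TATA box at -16 (TATAAA). The motifs were searched on both strands and do not overlap here.
Mmp13: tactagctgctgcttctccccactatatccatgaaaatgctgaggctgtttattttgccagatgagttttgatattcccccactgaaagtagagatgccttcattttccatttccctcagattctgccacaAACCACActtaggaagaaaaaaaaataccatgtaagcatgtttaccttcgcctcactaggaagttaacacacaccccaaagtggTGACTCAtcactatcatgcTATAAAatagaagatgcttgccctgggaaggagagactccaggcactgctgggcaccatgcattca

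Mmp13 stands at one end of a cluster of 10 MMP genes on chromosome 9, which includes Mmp3 and Mmp10. Windows of 75 bases from the promoters of the neighbouring genes that hold the AP-1 motif are shown from 10 bases before it, on the strand of each gene, with the AP-1 motif and the TATA box in capitals.
Mmp12 (chr9:7347320-7347394, forward): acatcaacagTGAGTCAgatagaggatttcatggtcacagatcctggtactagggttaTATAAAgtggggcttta
Mmp1b (chr9:7388055-7388129, reverse): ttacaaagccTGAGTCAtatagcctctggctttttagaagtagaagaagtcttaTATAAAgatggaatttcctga
Mmp3 (chr9:7445766-7445840, forward): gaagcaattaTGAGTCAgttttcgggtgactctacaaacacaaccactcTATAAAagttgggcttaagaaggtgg
Mmp1a (chr9:7464058-7464132, forward): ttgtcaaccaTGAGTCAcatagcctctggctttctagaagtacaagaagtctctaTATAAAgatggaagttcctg
Mmp10 (chr9:7502269-7502343, forward): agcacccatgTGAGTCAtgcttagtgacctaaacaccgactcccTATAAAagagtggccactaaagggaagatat
Mmp7 (chr9:7692017-7692091, forward): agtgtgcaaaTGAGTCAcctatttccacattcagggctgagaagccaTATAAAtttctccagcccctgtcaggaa

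In these sequences 12 bases separate the AP-1 motif from the TATA box at Mmp13, and between 27 and 41 bases do so at the 6 other genes. The AP-1 motif was present in a window of 7 of the 10 cluster genes, against 5.2% of 32851 promoter windows of the same length across the genome. The first is a count of genes and the second a share of windows. Mmp12 and Mmp7 each also had a window without the motif. It was present in the window of none of the 8 MMP genes outside the cluster that had one, among them Mmp11, Mmp14 and Mmp23. The RUNX motif was present in 5.27% of all windows, and both motifs together in 0.301%. Among MMP promoters, Mmp13 alone held both in 1 window, and Mmp27 and a second window of Mmp7 held the RUNX motif without AP-1. The CRE half-site TGACG, found in 20.8% of all windows, was not found in any MMP window. A match of letters is a description and not evidence of binding, and no match says only that the letters are absent from these bases.

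Total counts lay between 33605610 and 56090654 in the PTH group and between 41618108 and 46757836 in the vehicle group. Values are CPM, counts scaled to a common library size with edgeR's TMM factors, and means are given ± SD of 4 samples. Of 10 osteoblast markers the median level within a sample was 323 to 544 CPM with vehicle and 301 to 430 CPM with PTH, whereas that of 7 adipocyte markers was 2.71 to 6.0 and 3.49 to 5.87 CPM. The PTH samples spread more widely than the vehicle samples for the most abundant MMPs. PTH replicate 1, which had the largest total count, was the highest of the 4 PTH samples for Mmp2, Mmp13, Mmp14, Mmp19 and Mmp23, and PTH replicate 2, which had the smallest, was the lowest. For these 5 of the 10 genes, the order of the PTH samples was that of their total counts, an order also seen in 12.3% of the 16736 genes tested. The part of depth in these levels was not tested, and values without a replicate are given where a result turns on it.

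Per kilobase of exon, Mmp2 was the most abundant MMP in vehicle-treated cultures, at 435 to 515 CPM per kb. Mmp14 followed at 180 to 216 CPM per kb, Mmp13 at 91.0 to 118 and Mmp23 at 87.6 to 98.0, and the ranges of Mmp13 and Mmp23 overlapped. A wide step separated these from Mmp19 (12.9 to 14.7 CPM per kb), Mmp16 (10.5 to 11.7) and Mmp11 (8.19 to 12.2), of which Mmp16 and Mmp11 overlapped. Mmp3 (2.18 to 3.54 CPM per kb) and Mmp9 (1.67 to 2.14) were low, and Mmp10 was at or near 0. Mmp2 and Mmp14 together made up 72.7% to 74.7% of the summed level per kb of the 10 genes with vehicle and 72.5% to 74.3% with PTH. These shares of the gelatinase and of its membrane activator overlapped between the treatments.

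Along the cluster on chromosome 9, which spans 427 kb from 7272514 to 7699585 in GENCODE M21 on GRCm38, expression was concentrated at Mmp13. Mmp13 had a mean of 107 CPM per kb with vehicle and 125 with PTH. The next gene, Mmp12 (macrophage elastase), had 1.03 and 1.22 CPM per kb, and Mmp3, which starts 173 kb from Mmp13, had 2.58 and 2.92. The order of Mmp12 and Mmp3 depends on the exon length used. In CPM, Mmp12 had 7.43 and 8.83 and Mmp3 had 4.64 and 5.25. Mmp8 and Mmp27 were below 0.5 CPM per kb in the mean of each group. Mmp10 had 6 counts in 1 PTH sample and 2 counts in 1 vehicle sample, Mmp20 had 8 counts in 1 vehicle sample, and Mmp1a, Mmp1b and Mmp7 had no count in any of the 8 samples. Of the genes printed above with the AP-1 motif, Mmp13 was thus the most abundant, Mmp12 and Mmp3 were low but counted in every sample, and Mmp10, Mmp1a, Mmp1b and Mmp7 had no count or next to none.

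**Figure D1:**
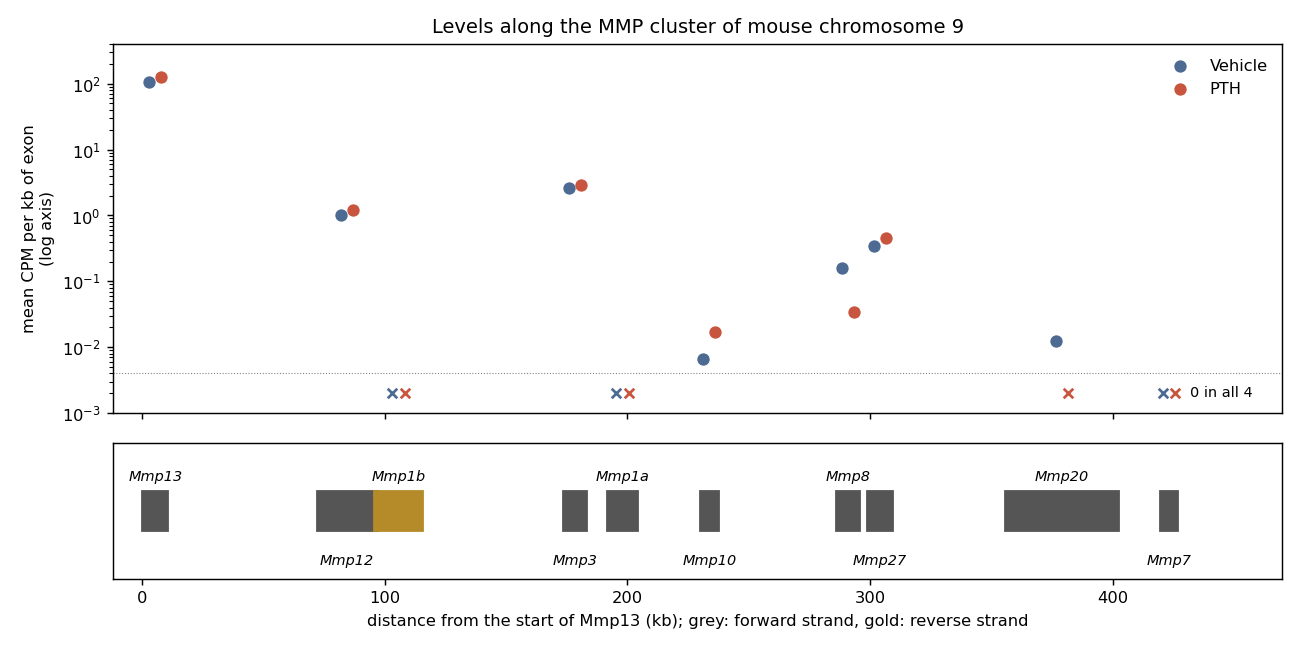
Mean level of each MMP gene of the chromosome 9 cluster in CPM per kb of exon (log axis, vehicle in blue and PTH in red, n = 4 each) against the distance from the start of Mmp13 in kb, with the genes drawn to scale below. Crosses mark genes with no count in the 4 samples of a group. Mmp13, at 107 and 125 CPM per kb, stands far above the 9 other genes.

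Of the 9 genes tested, 2 were downregulated by PTH (Mmp11 and Mmp16), none was upregulated, and 7 did not pass the threshold of an adjusted p under 0.05 (edgeR's quasi-likelihood test, Benjamini-Hochberg adjustment over 16736 genes). Among all genes tested 45.8% were differentially expressed, 22.5% downregulated and 23.3% upregulated. At an unadjusted p under 0.05, 1 of the 9 was higher with PTH (Mmp9), against 26.4% of all genes. In the other direction 3 of the 9 were lower at that unadjusted threshold. The matching share of all genes is not given here, and it is at least the 22.5% that passed the stricter adjusted threshold. This count is therefore not read as a result about the members. DESeq2, which called 38% of the genes it tested, also called Mmp11 and Mmp16 downregulated and no member upregulated. The PTH and vehicle samples did not overlap for these 2 genes, against 43% of all genes tested, and no member lay wholly above vehicle, against 21.2%. The median log2 fold change of the 9 was -0.04, and that of all genes tested was -0.00.

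**Figure D2:**
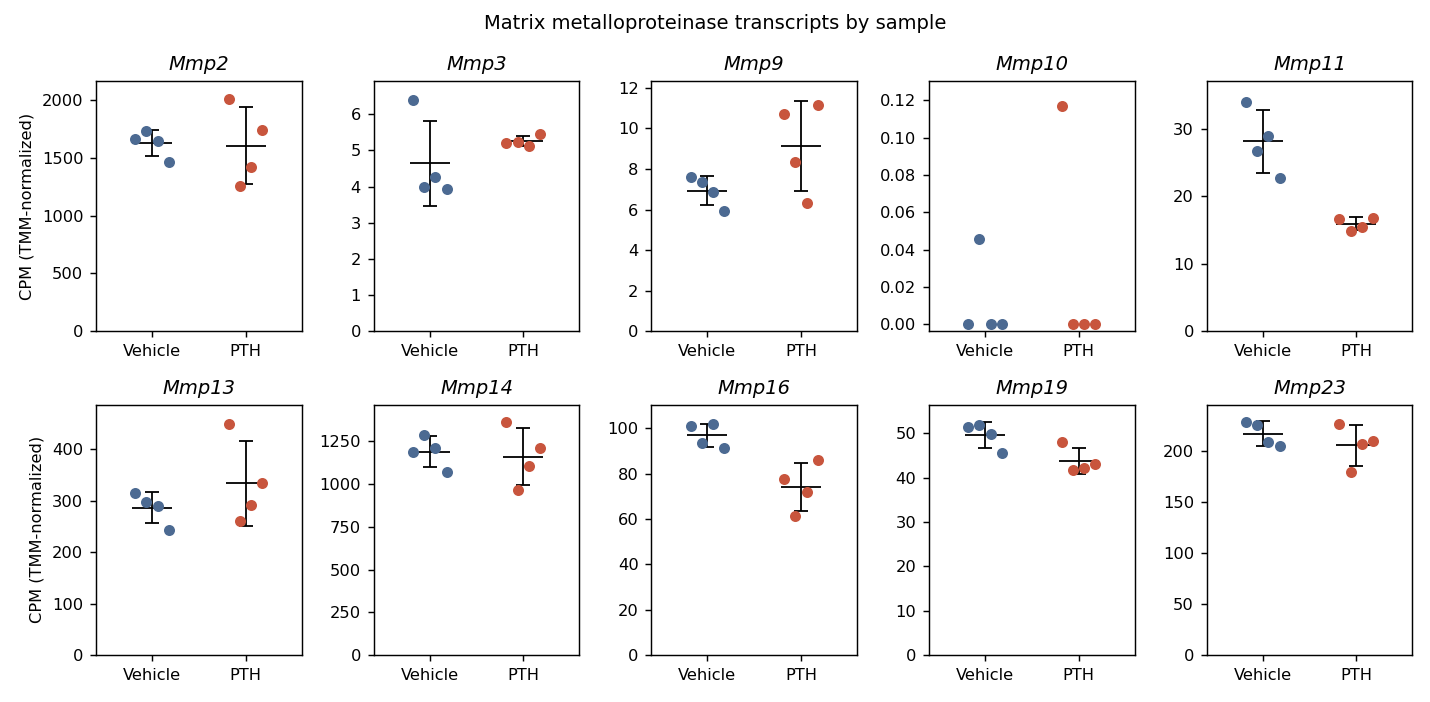
CPM of each of the 10 MMP genes in each sample (points; vehicle blue, PTH red; replicates 1 to 4 from left to right), with mean and SD as black bars, which are left out for Mmp10. The vertical axes differ between panels and begin at 0, apart from that of Mmp10. Only for Mmp11 and Mmp16 do all 4 PTH samples lie below all 4 vehicle samples.

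Mmp11 encodes stromelysin-3, an MMP that furin activates inside the cell and that cuts serine protease inhibitors more readily than classical matrix proteins. It lies on chromosome 10 from 75923222 to 75936496 on the reverse strand. Mmp11 had 34, 26.7, 29.0 and 22.8 CPM in vehicle replicates 1 to 4 and 16.7, 14.8, 15.4 and 16.8 CPM in PTH replicates 1 to 4. Every PTH sample was thus below every vehicle sample, and the PTH samples lay closer together. The mean fell from 28.1 ± 4.69 to 15.9 ± 0.956 CPM, and the fitted log2 fold change was -0.82 (standard error 0.113, edgeR adjusted p = 9.77e-05). The exact permutation test gave a two-sided p of 0.0286, the smallest that 4 samples against 4 allow. Refitting without 1 sample at a time kept Mmp11 between -0.91 and -0.72, past the threshold in all 8 fits. Chchd10 overlaps Mmp11 on the opposite strand, and since the strand setting of the counts is not given in the sources used here, reads of the shared stretch cannot be assigned with certainty.

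Mmp16 encodes MT3-MMP, a membrane-anchored enzyme that can activate proMMP2. It lies on chromosome 4 from 17852893 to 18119145 on the forward strand. The vehicle replicates 1 to 4 had 101, 93.5, 102 and 91.1 CPM of Mmp16, and the PTH replicates had 77.4, 61.1, 71.9 and 85.9 CPM. The groups did not overlap, with the highest PTH sample just under the lowest vehicle sample. The mean fell from 96.8 ± 5.27 to 74.0 ± 10.4 CPM, and the fitted log2 fold change was -0.39 (standard error 0.0938, edgeR adjusted p = 0.00515; exact permutation test, two-sided p = 0.0286). Left-out samples moved the value between -0.47 and -0.29, and all 8 fits passed the threshold.

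Mmp13, on chromosome 9 from 7272514 to 7283331, did not differ past the threshold after 24 hours. Its level was 316, 298, 289 and 243 CPM in vehicle replicates 1 to 4 and 449, 261, 292 and 334 CPM in PTH replicates 1 to 4. PTH replicate 1 was well above every other sample, PTH replicate 4 was above the vehicle range, and the other two PTH samples fell within it. The vehicle mean was 287 ± 30.9 CPM and the PTH mean 334 ± 82.2 CPM, for which the fitted log2 fold change was 0.22 (standard error 0.146, edgeR adjusted p = 0.242; exact permutation test, two-sided p = 0.371). The 95% interval of the fold change ran from 0.934 to 1.45, so that an increase beyond 1.45-fold lies outside it. Without PTH replicate 1 the log2 fold change was 0.04 (edgeR adjusted p = 0.759), and without PTH replicate 2 it was 0.33 (edgeR adjusted p = 0.0645).

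Mmp14 encodes MT1-MMP, which cuts fibrillar collagen at the cell surface and, with TIMP2, activates proMMP2. It lies on chromosome 14 from 54431612 to 54445364. Levels were 1191, 1286, 1214 and 1073 CPM in vehicle replicates 1 to 4 and 1362, 966, 1106 and 1210 CPM in PTH replicates 1 to 4. The highest and the lowest of the 8 samples were both PTH samples. The log2 fold change was -0.04 (standard error 0.105, edgeR adjusted p = 0.804), and the interval of the fold change was 0.832 to 1.14.

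Mmp2 and Mmp9 encode the gelatinases, which cut denatured collagen and basement membrane collagen. Mmp2, on chromosome 8 from 92827291 to 92853420, had 1661, 1735, 1642 and 1467 CPM in vehicle replicates 1 to 4. In PTH replicates 1 to 4 it had 2004, 1260, 1416 and 1743 CPM, a spread of 20.7% of the mean against 6.97% with vehicle. The PTH samples reached beyond the vehicle samples at both ends. The log2 fold change of Mmp2 was -0.02 (standard error 0.131, edgeR adjusted p = 0.921; interval of the fold change 0.810 to 1.20), and its sign changed when PTH replicate 2 or 3 or vehicle replicate 2 was left out.

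Mmp9, on chromosome 2 from 164940780 to 164955850, is the gelatinase of osteoclasts and macrophages and was the lowest of the 9 tested genes per kb in vehicle-treated cultures. It had 7.59, 7.35, 6.88 and 5.93 CPM in vehicle replicates 1 to 4 and 10.7, 8.36, 6.32 and 11.1 CPM in PTH replicates 1 to 4. PTH replicates 1, 2 and 4 were above all vehicle samples, and PTH replicate 3 was within their range. The log2 fold change was 0.40 (standard error 0.171, unadjusted p = 0.0377 and adjusted p = 0.0756 by edgeR; exact permutation test, two-sided p = 0.143). Of 8 refits without a single sample, 1 passed the threshold, that without PTH replicate 3 (log2 fold change 0.54, edgeR adjusted p = 0.0112), and the lowest value was 0.29 without PTH replicate 4 (edgeR adjusted p = 0.219). The summed level of 10 macrophage markers was 1006 to 1630 CPM with vehicle and 1575 to 2034 CPM with PTH, ranges that overlapped, and most of that sum was Lyz2 (mean 914 CPM with vehicle and 1417 CPM with PTH). The median level of the 10 overlapped widely (34.2 to 57.4 and 47.0 to 54.9 CPM), and 2 of the 10 (Lyz2 and Cd14) were upregulated, near the 23.3% of all genes. The median log2 fold change of the 10 was 0.33, against -0.00 for all genes tested. At an unadjusted p under 0.05 by edgeR, 4 of the 10 were higher with PTH, against 26.4% of all genes. The sums of 10 osteoclast markers were 503 to 606 CPM with vehicle and 533 to 739 CPM with PTH. Most of that sum was Ctsk (mean 449 CPM with vehicle and 464 CPM with PTH). Itgb3 (38.6 and 35.8 CPM), Acp5 (23.5 and 22.9), Atp6v0d2 (3.53 and 4.71) and Tnfrsf11a (3.49 and 4.55) had counts in every sample. The fusion gene Dcstamp was at 0 in all 8 samples, and the calcitonin receptor gene Calcr had at most 3 counts. Of the 8 osteoclast markers tested, Nfatc1 alone was upregulated (43.2 CPM with vehicle and 99.7 CPM with PTH, log2 fold change 1.21), against 23.3% of all genes. The median log2 fold change of the 8 was 0.21. At an unadjusted p under 0.05 by edgeR, 2 of them were higher with PTH, against 26.4% of all genes. The median level of the 10 was 3.03 to 4.23 CPM with vehicle and 4.09 to 5.39 CPM with PTH, ranges that overlapped. The part of such cells in the level of Mmp9 was not tested. In bulk RNA a change in the number of cells of a type cannot be told apart from a change in RNA per cell.

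Mmp3 and Mmp10 encode the stromelysins 1 and 2, which cut proteoglycans and fibronectin and activate other MMPs. Mmp3, on chromosome 9 from 7445822 to 7455975, had 6.38, 4.0, 4.26 and 3.93 CPM in vehicle replicates 1 to 4. It had 5.21, 5.24, 5.12 and 5.44 CPM in PTH replicates 1 to 4. All 4 PTH samples lay above vehicle replicates 2, 3 and 4 and below vehicle replicate 1. The log2 fold change was 0.18 (standard error 0.171, edgeR adjusted p = 0.422), and without vehicle replicate 1 it was 0.37 (edgeR adjusted p = 0.0549). Mmp10, on chromosome 9 from 7502352 to 7510240, had no count in 6 of the 8 samples, with 6 counts in PTH replicate 1 and 2 in vehicle replicate 2. It was not tested, and a difference was not detectable at this depth.

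Mmp19, on chromosome 10 from 128790910 to 128800824, encodes a secreted MMP that cuts basement membrane proteins. Its vehicle replicates 1 to 4 had 51.4, 51.9, 49.9 and 45.4 CPM and its PTH replicates had 47.9, 41.7, 42.0 and 42.9 CPM. PTH replicate 1 was above vehicle replicate 4 and the other PTH samples were below all vehicle samples. The log2 fold change was -0.19 (standard error 0.0715, edgeR adjusted p = 0.0516; exact permutation test, two-sided p = 0.0571), next to the threshold. It passed without PTH replicate 1 (-0.24, edgeR adjusted p = 0.0150) and without vehicle replicate 4 (-0.23, edgeR adjusted p = 0.0349). Tmem198b and an antisense gene overlap Mmp19 on the opposite strand.

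Mmp23, on chromosome 4 from 155650655 to 155653384, encodes a membrane-anchored MMP that lacks the hemopexin domain of most others. It had 229, 226, 209 and 205 CPM in vehicle replicates 1 to 4 and 227, 179, 207 and 210 CPM in PTH replicates 1 to 4. The groups overlapped, with PTH replicate 2 as the lowest sample. The log2 fold change was -0.08 (standard error 0.0793, edgeR adjusted p = 0.455).

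Of the 13 other MMP genes, 8 were tested and 1 passed the threshold, against 45.8% of all genes tested. It was Mmp8, which encodes the collagenase of neutrophils, and it was downregulated, against 22.5% of all genes. Mmp8 had 22, 10, 13 and 27 counts in vehicle replicates 1 to 4 and 6, 0, 0 and 9 counts in PTH replicates 1 to 4. The groups did not overlap, and the adjusted p was 0.0445 by edgeR and 0.0492 by DESeq2. That call rests on few counts and was kept in 1 of 8 refits without a single sample. Of 7 neutrophil markers 4 were at 0 in all samples, and their sum was at most 0.222 CPM with vehicle and 0.812 CPM with PTH.

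None of the 8 was upregulated at an adjusted p under 0.05 by edgeR, against 23.3% of all genes, or by DESeq2. At an unadjusted p under 0.05 by edgeR 1 was higher, against 26.4% of all genes. That gene was Mmp17 (6.23 ± 0.912 CPM with vehicle, 7.87 ± 1.46 CPM with PTH, edgeR adjusted p = 0.0951). Mmp28 had 12.6 ± 1.49 and 10.9 ± 1.0 CPM (edgeR adjusted p = 0.134), Mmp12 had 7.43 ± 1.26 and 8.83 ± 1.72 CPM (0.239) and Mmp15 had 4.96 ± 0.693 and 4.4 ± 1.41 CPM (0.586). Mmp24, Mmp25 and Mmp27 were at about 1 CPM or less in each group, with edgeR adjusted p of 0.286, 0.725 and 0.408. Mmp21, like Mmp1a, Mmp1b and Mmp7, had no count in any sample.

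**Figure D3:**
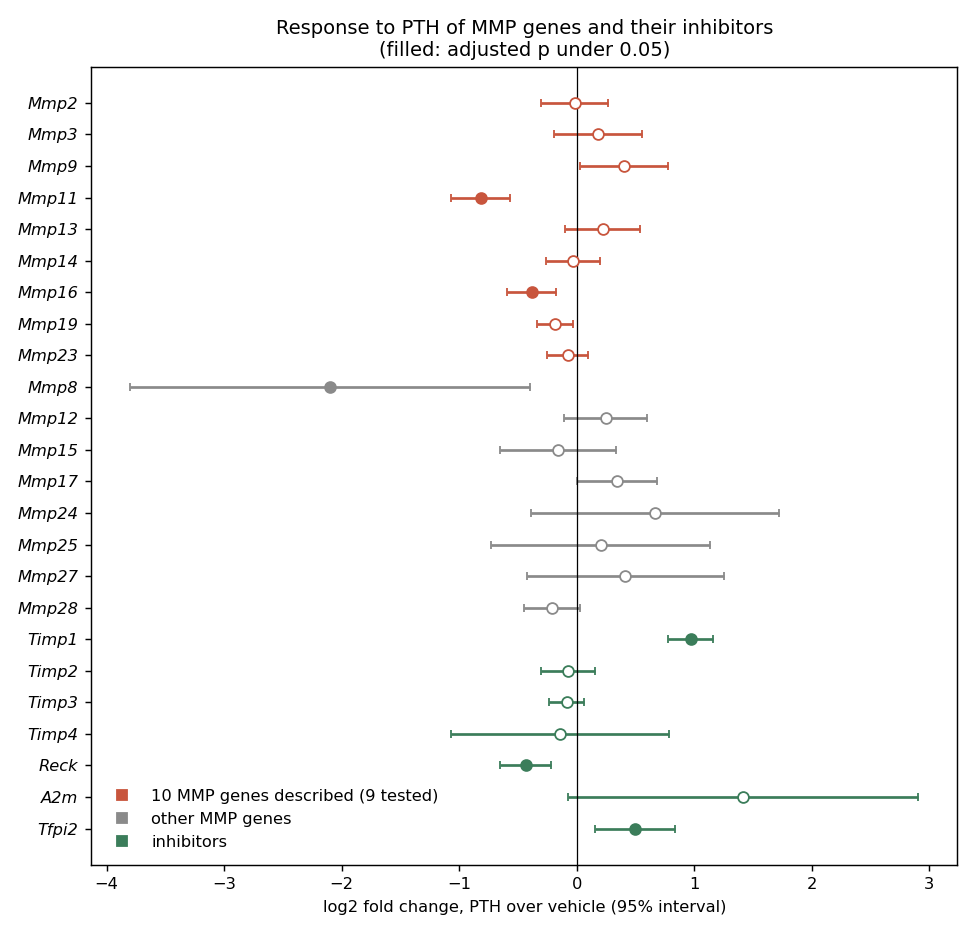
Log2 fold change of PTH over vehicle with its 95% interval for the 9 tested MMP genes described here (red), the 8 other tested MMP genes (grey) and 7 inhibitor genes (green), 4 samples a group. Filled points passed an adjusted p under 0.05 by edgeR. Mmp11 (-0.82) and Mmp16 (-0.39) lie to the left of 0, and Timp1 (0.97) lies to the right.

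Among 7 inhibitor genes, 2 were upregulated by PTH and 1 was downregulated, with a median log2 fold change of -0.08. The 3 called are a share close to the 45.8% called among all genes tested. Timp1, the inhibitor that binds MMP9, MMP3 and MMP13 but blocks membrane-type enzymes poorly, had 164, 154, 174 and 199 CPM in vehicle replicates 1 to 4 and 374, 319, 338 and 324 CPM in PTH replicates 1 to 4. All PTH samples were above all vehicle samples, with a log2 fold change of 0.97 (standard error 0.0878, edgeR adjusted p = 2.60e-06). Reck, a membrane-anchored inhibitor of MMP2, MMP9 and MMP14, fell from 131 ± 10.1 to 96.8 ± 14 CPM (log2 fold change -0.44, edgeR adjusted p = 0.00337), and the groups did not overlap. Tfpi2, a serine protease inhibitor of the matrix, rose from 4.07 ± 0.664 to 5.75 ± 0.640 CPM (log2 fold change 0.50, edgeR adjusted p = 0.0201), a call that did not hold without vehicle replicate 2 (edgeR adjusted p = 0.0619) or with total counts in place of TMM (edgeR adjusted p = 0.0713). Timp2, at 2667 ± 192 and 2531 ± 334 CPM, and Timp3, at 643 ± 25.8 and 606 ± 30.5 CPM, did not pass the threshold (edgeR adjusted p of 0.588 and 0.334). Timp4 and A2m were below 0.5 CPM in the mean of each group.

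To set each protease against an inhibitor that binds it, 5 ratios of CPM were taken within each sample, where library size cancels, and a further ratio compared Mmp3 with Mmp10. Mmp13 was 122% to 193% of Timp1 with vehicle and 81.8% to 120% with PTH, so that every PTH sample was lower (log2 difference -0.78, exact permutation test, two-sided p = 0.0286). Mmp3 was 1.98% to 3.89% of Timp1 with vehicle and 1.39% to 1.68% with PTH, again without overlap (log2 difference -0.77, exact permutation test, p = 0.0286). The ratio of Mmp9 to Timp1 differed by -0.61 on the log2 scale, and its groups overlapped (exact permutation test, p = 0.0571). After Benjamini-Hochberg adjustment over the 6 ratios all 3 of these p-values were 0.0857, so that none passed 0.05, in a design whose smallest unadjusted p is 0.0286. As given above, Timp1 itself rose in the fit across all genes whereas Mmp13, Mmp3 and Mmp9 did not pass it.

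Mmp14 was 43.6% to 45.5% of Timp2 with vehicle and 45.4% to 46.8% with PTH (log2 difference 0.04, exact permutation test, p = 0.0571, adjusted 0.0857). Mmp2 was 60.2% to 61.5% of Timp2 with vehicle and 58.2% to 68.9% with PTH (log2 difference 0.04, exact permutation test, p = 0.486, adjusted 0.583). Within a sample these 3 transcripts thus kept nearly fixed proportions with vehicle, where the SD of the log2 ratio was 0.0132 for Mmp2 and 0.0251 for Mmp14. With PTH the SD was 0.116 for Mmp2 and 0.0208 for Mmp14, while the level of Mmp14 itself spread by 14.4% of its mean. The ratio of Mmp3 to Mmp10 rests on the pseudocount of 0.1 CPM, since Mmp10 was at 0 in most samples, and is not read.

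**Figure D4:**
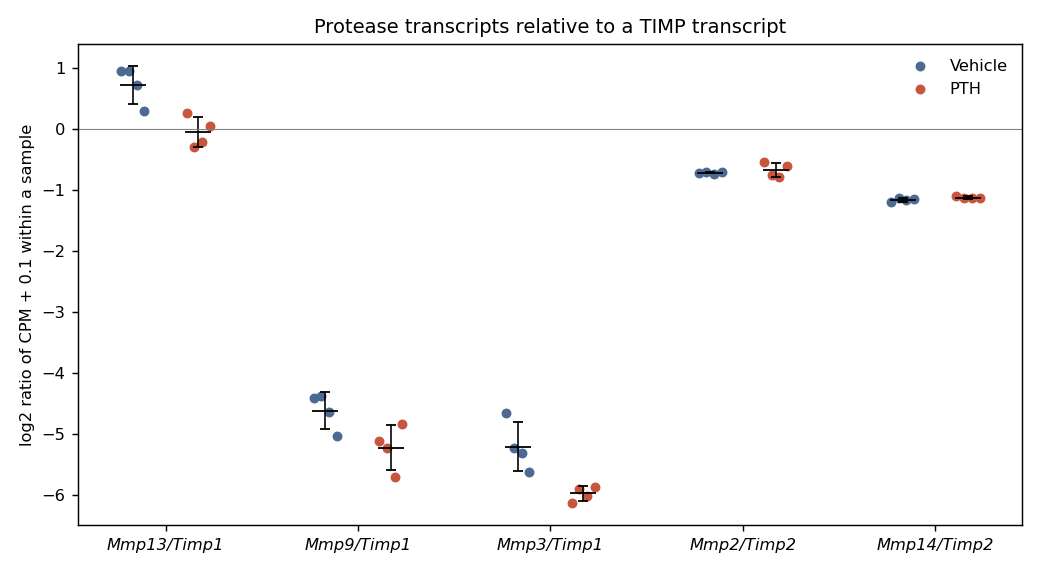
Log2 ratio of CPM + 0.1 of a protease transcript to a TIMP transcript within each sample (points; vehicle blue, PTH red), with mean and SD of 4 samples in black. For Mmp13/Timp1 and Mmp3/Timp1 all PTH samples lie below all vehicle samples, and the ratios to Timp2 differ by 0.04 between the groups.

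Of 20 genes for the activation, docking and clearance of MMPs, 19 were tested, 8 were upregulated and 2 were downregulated, with a median log2 fold change of 0.08. The 10 called of 19 lie near the 45.8% of all genes called in either direction. By direction, 8 of 19 is a larger share than the 23.3% of all genes upregulated, and 2 of 19 a smaller one than the 22.5% downregulated. This list too was chosen with earlier results of these data known. The urokinase receptor gene Plaur, whose ligand starts the plasmin cascade that activates several proMMPs, rose most, from 18.4 ± 1.56 to 298 ± 51.6 CPM (log2 fold change 4.02, edgeR adjusted p = 1.87e-10). The cell surface proteoglycan gene Sdc4 rose by 2.46 on the log2 scale, and the urokinase gene Plau rose by 1.08 (edgeR adjusted p of 7.28e-09 and 4.65e-07). Lrp1, an endocytic receptor that clears MMP13, MMP9 and MMP2 from the cell surface, rose from 755 ± 92.9 to 1167 ± 122 CPM (log2 fold change 0.63, edgeR adjusted p = 3.65e-04). The largest decrease in the list was that of the tissue plasminogen activator gene Plat (log2 fold change -0.42, edgeR adjusted p = 0.0336), a call kept in 3 of 8 refits without a single sample.

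Of 22 matrix genes whose products MMPs cut, 4 were upregulated and none was downregulated by edgeR, with a median log2 fold change of 0.03, against 23.3% and 22.5% of all genes tested. DESeq2 called 5 upregulated and none downregulated, where it called 38% of the genes it tested in either direction. At an unadjusted p under 0.05 edgeR's numbers were 5 and 0, where 26.4% of all genes were higher and the share lower is not given here. Those upregulated by edgeR were the proteoglycan genes Acan (log2 fold change 1.03), Vcan (0.46) and Hspg2 (0.39), and Col2a1 (0.44), the collagen of cartilage. The edgeR adjusted p was 6.45e-05 for Acan and 0.00408 for Hspg2.

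Of 20 transcription regulators with known sites or binding at Mmp13 or other MMP genes, 13 were upregulated and 3 were downregulated, with a median log2 fold change of 0.62, against 23.3% and 22.5% of all genes tested and their median of -0.00. The list was chosen with earlier results of these data known and holds several related Fos and Jun genes, so this contrast is a description and not a test. The AP-1 genes accounted for several of the largest increases. Fos rose from 8.89 ± 0.898 to 212 ± 20.6 CPM (log2 fold change 4.58, edgeR adjusted p = 1.09e-11), Junb from 23.8 ± 2.30 to 396 ± 32.1 CPM (4.06, edgeR adjusted p = 1.50e-11) and Fosl2 from 125 ± 8.83 to 1039 ± 85.7 CPM (3.05, edgeR adjusted p = 8.97e-11). Fosl1 and Jun were also upregulated (log2 fold changes of 2.99 and 0.67), Fosb had a log2 fold change of 0.34 (edgeR adjusted p = 0.0715) and Jund one of 0.01 (edgeR adjusted p = 0.889). Cebpb rose by 3.33 on the log2 scale (edgeR adjusted p = 2.83e-11).

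Runx2, whose protein binds the RUNX motif printed above, was downregulated from 116 ± 5.70 to 92.3 ± 8.97 CPM (log2 fold change -0.33, edgeR adjusted p = 0.00362). Hdac4, a deacetylase known to repress RUNX2, rose from 25.3 ± 0.867 to 90.4 ± 10.3 CPM (log2 fold change 1.84, edgeR adjusted p = 5.12e-09), and the deacetylase gene Sirt1 rose by 0.56 (edgeR adjusted p = 4.30e-04). Sp7, which encodes the osteoblast factor osterix, had the largest decrease of the list (log2 fold change -1.78, edgeR adjusted p = 4.45e-06). After 24 hours the transcripts of Fos, Junb and Fosl2 stood far above vehicle, and that of Mmp13, whose promoter holds the AP-1 motif, had an interval that ended at 1.45-fold. The activity of these proteins at the promoter was not measured, and the part of any of these regulators in the level of Mmp13 was not tested.

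**Figure D5:**
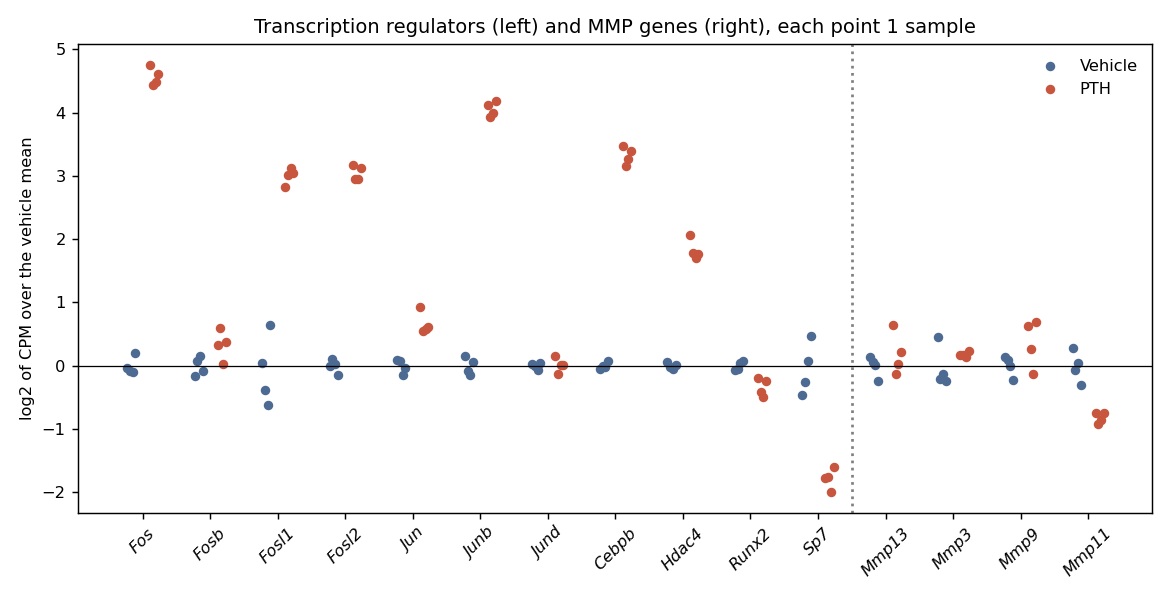
Log2 of the CPM of each sample over the vehicle mean (points; vehicle blue, PTH red, 4 samples each) for 11 transcription regulators, left of the dotted line, and 4 MMP genes, right of it. Fos, Fosl1, Fosl2, Junb and Cebpb lie 2.99 or more above vehicle by fitted log2 fold change, whereas the PTH samples of Mmp13 and Mmp9 overlap those of vehicle.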

How the data were processed

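The authors made poly(A) libraries, read them as pairs on an Illumina NovaSeq, aligned them to GRCm38 (mm10) with HISAT2, sorted them with SAMtools, ran StringTie2 on them and deposited, for each gene and sample, an estimated count as a whole number, derived from transcript coverage by StringTie2's companion script without scaling between samples. Tool versions, annotation release, strand setting and the read length given to that script are not given in the sources used here.

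From these estimated counts the PTH group was set against the vehicle group with edgeR 4.0.16 (TMM, quasi-likelihood F-test, filterByExpr at a count of 10 and a total of 15) in R 4.3.3 over 16736 genes of all 8 samples, without covariates, at an adjusted p under 0.05. The authors used DESeq2, which was run as an alternative (1.42.0). Intervals are 95% intervals from the edgeR standard error. Exact permutation tests (70 assignments, two-sided) used log2(CPM + 0.1). The fits were tested on simulated data. Exon lengths, positions and overlaps came from GENCODE M21 (GRCm38), promoters from RefSeq (GRCm38.p6), in which 6 of the 10 genes were matched. Each exon length was the union of all annotated exons of a gene, and levels per kb depend on it. A blastn 2.17.0 search found no other gene sharing 150 bases at 95% identity with the 10, apart from Gm15242 with Mmp3, which had no count. The scripts ran in Python 3.11.15 with pandas 2.3.3 and matplotlib 3.10.9.

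The members and gene lists were chosen with earlier results of these data known. Named were all 10 genes, the other MMP genes and inhibitors, and of each other list the called genes with the largest rise and fall, with genes known from PTH control of Mmp13. The other genes named from these lists and the marker genes were picked after their values were seen. Alternatives were DESeq2, its size factors, no filter, the replicate number as a block, each sample left out, counts halved, a log2 fold change of at least 1, entries summed by symbol, a pseudocount of 0.5 CPM for the ratios and, added after the data were seen, total counts without TMM and the 10 most abundant genes left out. Counting precision limits genes with few counts only.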

Additional observations from a re-analysis of the deposited data

Results flagged for a closer look

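In groups of 4 samples, a sample was singled out by its gap to the nearest of the others, divided by the range of the group. The threshold was Dixon's 95% critical value, which chance alone exceeds in about 1 of 20 groups, and 40 groups were examined. Vehicle replicate 1 stood apart for Mmp3, with 6.38 CPM where the other vehicle samples had 3.93 to 4.26. Mmp10 had 0.117 CPM in PTH replicate 1 and 0.0459 CPM in vehicle replicate 2, and 0 in the other samples of each group. With the others at 0, gap over range is 1 whatever the count, so the rate of 1 in 20 groups does not apply to Mmp10. PTH replicate 1 stood apart for the log2 ratio of Mmp14 to Timp2, with -1.09 against -1.14 to -1.13 in the other PTH samples, and for that of Mmp3 to Mmp10, with 4.61 against 5.70 to 5.79, which follows from its counts of Mmp10.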

How the results depend on the processing

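Mmp11 and Mmp16 were downregulated in each of the 17 fits, with log2 fold changes of -0.95 to -0.72 and -0.51 to -0.29. With total counts in place of TMM, which moved the median of all genes by -0.13, 4 members were downregulated (also Mmp19 and Mmp23), and Jund was at -0.12. The share of all genes downregulated in that setting is not given here, so the count of 4 is not read as a result about the members. At an absolute log2 fold change of at least 1, 0 members were downregulated, and 1232 genes were upregulated and 650 downregulated. With samples left out in turn, 0 to 1 members were upregulated and 2 to 3 downregulated. Mmp2 then lay between -0.15 and 0.093, Mmp14 between -0.12 and 0.053, Mmp15 between -0.33 and 0.039, Timp2 between -0.15 and 0.011, Timp4 between -0.34 and 0.11 and Jund between -0.038 and 0.069. The ratio Mmp2/Timp2 lay between -0.00098 and 0.080, and Mmp3/Mmp10 between -0.14 and 0.34. Without the filter on low counts Jund was at -0.020, Mmp8 was not called (edgeR adjusted p = 0.106) and Mmp19 was (edgeR adjusted p = 0.0485). The causes were not tested. Samples of the same number did not deviate together (correlations across genes between -0.0409 and 0.0274). Samples of different numbers were not compared, so these values cannot decide whether the numbers pair samples by preparation. With the replicate number as a block, 0 members were upregulated and 2 downregulated, and 3571 and 3432 genes in all. Depth limits Mmp8 and Mmp10.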

Other observations

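Mmp13 was compared with the other abundant MMP transcripts within each sample after their values had been seen, as a description with no test. Per kb of exon, Mmp13 was 24.0%, 21.7%, 22.2% and 20.9% of Mmp2 in vehicle replicates 1 to 4 and 28.2%, 26.1%, 26% and 24.2% in PTH replicates 1 to 4, so that every PTH sample was above every vehicle sample. As a share of the summed level of the 10 genes, Mmp13 took 11% to 12.4% with vehicle and 12.9% to 15% with PTH. Relative to Mmp14 it took 50.5% to 59.2% with vehicle and 58.9% to 73.5% with PTH, and relative to Col1a1 1.28% to 1.79% and 1.51% to 1.90%, and in both of these the groups overlapped.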
